A study of Mus musculus with 19 samples.

Results

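The enzymes described here attach polar groups to drugs, hormones, bilirubin and bile acids, or split ester bonds. UDP-glucuronosyltransferases (Ugt genes) transfer sugar acids or sugars, mostly glucuronic acid from UDP-glucuronic acid. Cytosolic sulfotransferases (Sult genes) transfer sulfate from the donor PAPS. Carboxylesterases (Ces genes) cleave esters and amides of drugs, and several of them hydrolyse triacylglycerol in hepatocytes, the liver cells in which all 3 families are known to be abundant. In mouse liver a number of these genes differ by sex: Ugt2b1 and Ugt2b38 are known as male-biased, and several Sult2a and Sult3a genes as female-biased.

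All rows of the deposited count table whose symbol began with Ugt1, Ugt2 or Ugt3, with Sult and a digit, or with Ces1 to Ces5 were taken. That gave 60 of 24537 genes: 20 Ugt, 21 Sult and 19 Ces genes. Poly(A) RNA of hepatocytes isolated by 2-step liver perfusion had been sequenced from 19 male wild-type (WT) C57BL/6J mice, with 1 library per mouse. The mice were 10 young animals (5 months) and 9 old animals (24 months). On the first cull day 5 young and 5 old mice were taken, and 23 days later 5 young and 4 old mice. Mice are named by their library numbers, and no treatment or genetic change is given in the labels for either age.

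Libraries held 17381439 to 19583059.5 counts over genes in young mice and 18156240 to 20287628.5 in old mice. Every one of the 9 hepatocyte markers found in the table passed the filter on low counts. Between the ages 2 of them rose, 2 fell and 5 did neither, with a median log2 ratio of old over young of -0.22. Albumin (Alb) alone took 5.82% to 6.29% of counts in young mice 1184, 1186 and 1188. It took 10.2% to 11.1% in the other 7 young mice and 10.2% to 15.4% in old mice. These 3 young mice, all of the first cull day, were set apart with earlier results of these data known, and they are also low in several of the genes below. Values without them are therefore given for some of the genes, and the number of calls without them for all members. A value that passes only without them is a description of the remaining mice, not a called fall, since low young values were left out. Markers of other liver cells were higher in old libraries: 12 of 14 macrophage, 10 of 14 endothelial and 12 of 13 tested stellate genes rose and none fell. Their summed level was 156 to 732 CPM (counts divided by the scaled library total, in units of 1e6) in young and 92.9 to 3766 CPM in old mice for macrophage genes. It was 199 to 358 against 212 to 682 CPM for endothelial genes and 53.1 to 142 against 148 to 528 CPM for stellate genes. An other-cell score, the mean log2 CPM over 41 tested genes of these lists, was 2.48 to 4.06 in young and 2.64 to 5.77 in old mice. In bulk RNA, fewer cells of a type and less RNA per cell cannot be told apart.

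Of the 60 genes, 39 had enough reads to be tested: 18 Ugt, 7 Sult and 14 Ces genes. The other 21 (2 Ugt, 14 Sult and 5 Ces genes) are given as raw counts. The ages were compared by the quasi-likelihood test of edgeR with a term for cull day, adjusted over all 12269 genes tested, at an adjusted p of 0.05. In that fit 30.9% of all tested genes passed, 16.3% higher and 14.5% lower in old mice. Among the 39 tested members 17 passed, 1 higher and 16 lower, and the median log2 fold change (the log2 ratio of old over young) was -0.13, against -0.003 over all genes. By family, 8 of 18 Ugt, 3 of 7 Sult and 5 of 14 Ces genes fell, and 1 Sult gene rose. All old mice were below all young mice in 6 members (Ugt2b1, Ugt2b35, Ugt2b37, Ces2c, Ces2d-ps and Ces4a). Groups that did not overlap were found in 1.7% of all tested genes.

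Most of the genes lie in a few clusters. On chromosome 1, 0 of the 8 Ugt1a genes (chr1:88055411-88220002) passed in edgeR, DESeq2 or limma-voom, and 0 had an unadjusted p under 0.05. On chromosome 5 a stretch of 702 kb (chr5:86889770-87591611) holds all Ugt2 genes and, next to them, Sult1b1, Sult1d1 and Sult1e1; 8 of its 10 tested genes fell. Chromosome 8 carries 2 carboxylesterase clusters. In the Ces1 and Ces5a cluster (chr8:93020215-93535707) 0 of 6 tested genes passed in edgeR and DESeq2, 1 had an unadjusted p under 0.05, and limma-voom called 1 (Ces1c). In the Ces2, Ces3 and Ces4a cluster (chr8:104734003-105150109) 5 of 8 fell. Whether the clusters differ was not tested. Positions are those of the deposited table on mm10.

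**Figure D1:**
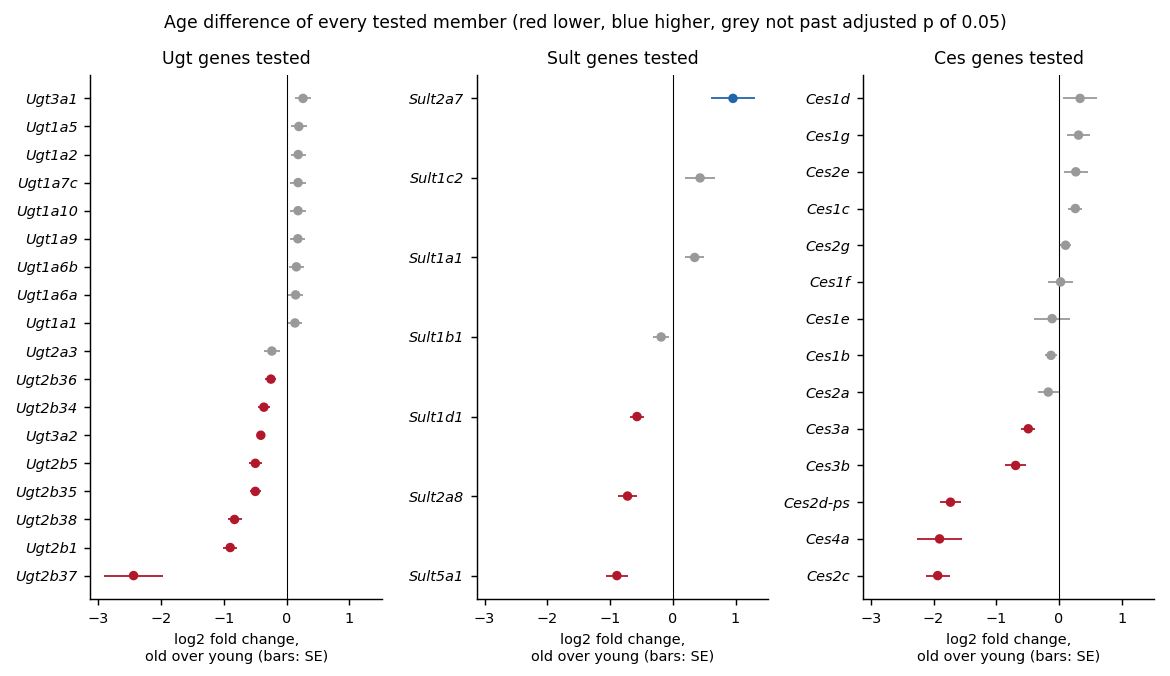
Log2 ratio of old over young mice (points, with bars of 1 standard error) for the 18 Ugt, 7 Sult and 14 Ces genes tested, ordered by value; red marks genes that fell, blue the gene that rose and grey those that did not pass an adjusted p of 0.05. Ugt2b37 lies lowest at -2.44, Ces2c, Ces4a and Ces2d-ps lie between -1.94 and -1.73, and Sult2a7 at 0.96 is the blue point.

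Sequences matter first for the Ugt1a genes, since they decide what a count means. Each Ugt1a transcript joins a first exon of its own, or 2 own exons in Ugt1a6a and Ugt1a6b, to a common set of following exons. The joints below show it: the last 30 bases of the own part are in lower case, and the first 30 shared bases (chr1:88215044-88215073, plus strand) in capitals. They come from GENCODE M21 transcripts on GRCm38, 5′ to 3′.
Ugt1a1: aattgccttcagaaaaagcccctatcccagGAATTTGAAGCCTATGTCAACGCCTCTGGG
Ugt1a9: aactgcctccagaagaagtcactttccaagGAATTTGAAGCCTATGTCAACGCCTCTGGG
Ugt1a5: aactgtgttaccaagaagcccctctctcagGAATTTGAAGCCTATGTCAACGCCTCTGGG
Ugt1a6a: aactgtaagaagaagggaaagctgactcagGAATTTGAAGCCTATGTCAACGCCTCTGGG
The capitals were identical in all 8 genes. Ugt1a2 had the same 30 own bases as Ugt1a5, and Ugt1a6b the same as Ugt1a6a. Own bases differed from those of Ugt1a1 at 7 positions in Ugt1a9, at 9 in Ugt1a5 and at 16 in Ugt1a6a. Own exons are 890 to 986 bases long and the shared ones 2309 bases in Ugt1a1, so a row of the table mixes a small own part with a large common one.

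The Ugt2b genes, each of which fell, differ in the sequence before their starts; its relation to the falls was not tested. The 250 bases before the annotated start are shown for 3 genes that share a stretch and for Ugt2b1, which does not have it. They are RefSeq sequences on GRCm38.p6, minus strand, 5′ to 3′, and capitals mark a run of 62 bases identical in the first 3 genes.
Ugt2b5 (chr5:87140341-87140590): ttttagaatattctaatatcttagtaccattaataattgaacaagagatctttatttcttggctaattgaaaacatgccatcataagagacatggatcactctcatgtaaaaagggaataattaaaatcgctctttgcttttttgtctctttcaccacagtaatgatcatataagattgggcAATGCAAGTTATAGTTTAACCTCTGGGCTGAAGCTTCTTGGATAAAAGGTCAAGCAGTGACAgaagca
Ugt2b37 (chr5:87254789-87255038): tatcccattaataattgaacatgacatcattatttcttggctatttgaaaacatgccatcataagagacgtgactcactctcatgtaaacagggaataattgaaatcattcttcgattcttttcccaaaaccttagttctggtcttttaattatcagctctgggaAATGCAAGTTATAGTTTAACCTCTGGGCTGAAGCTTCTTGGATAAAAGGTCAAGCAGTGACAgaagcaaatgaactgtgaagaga
Ugt2b38 (chr5:87424204-87424453): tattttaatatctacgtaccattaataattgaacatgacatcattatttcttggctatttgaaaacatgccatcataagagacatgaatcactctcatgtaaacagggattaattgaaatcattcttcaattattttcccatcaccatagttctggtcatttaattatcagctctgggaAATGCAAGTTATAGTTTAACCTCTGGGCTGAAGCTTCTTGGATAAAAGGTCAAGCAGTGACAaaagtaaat
Ugt2b1 (chr5:86926504-86926753): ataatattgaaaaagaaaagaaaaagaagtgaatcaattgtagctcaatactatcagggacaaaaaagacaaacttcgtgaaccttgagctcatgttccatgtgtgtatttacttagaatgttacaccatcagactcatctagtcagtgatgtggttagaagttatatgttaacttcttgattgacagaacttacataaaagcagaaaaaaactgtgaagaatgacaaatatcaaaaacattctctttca
The run ends 7 bases before the start of Ugt2b5, 24 before that of Ugt2b37 and 10 before that of Ugt2b38. The longest run of Ugt2b36 with Ugt2b5 was 24 bases, and those of Ugt2b1, Ugt2b34 and Ugt2b35 were 9 bases each. A promoter was found for 49 of the 60 genes. The letters GTTAAT, the core of the site known for the liver factor HNF1, were searched on both strands and found in 15 of these 49 windows, against 6.4% of all 32817 windows of that length. Among them were Ugt1a1, Ugt1a6a, Ugt1a9, Ugt2a3, Sult1d1 and Ces3b (41, 50, 91, 54, 79 and 56 bases before the start, for Ugt2a3 also 47), and none of the 7 Ugt2b genes. Another 6 of the 15 were Sult2a3, Sult2a4, Sult2a5, Sult2a6, Sult3a2 and Ces5a, which had at most 0.5 counts in any library. TTCNNNGAA, the pattern known for STAT5, was in 3 of the 49 windows and 7.0% of all windows. These letters are a description of the windows, not evidence of binding.

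All 7 Ugt2b genes fell. Their summed level was 2076 to 3758 CPM in young mice, with a median of 3310, and 1666 to 2656 CPM in old mice, with a median of 2229. The median log2 fold change of the 7 was -0.50. Enzymes of this subfamily glucuronidate steroids, bile acids and phenols. Ugt2b5 was the most abundant Ugt gene per length, at a mean of 475 CPM per kb of exon over the 19 libraries. It ran from 579 over a median of 1113 to 1364 CPM in young mice and from 493 over 742 to 963 CPM in old mice. The groups overlapped at young mice 1184, 1186 and 1188 (579 to 782 CPM), whereas the other 7 young mice held 972 to 1364 CPM, all above the highest old mouse. Its log2 fold change was -0.50 (SE 0.107, edgeR adjusted p = 0.00272), and -0.65 without those 3 mice (edgeR adjusted p = 0.000334). Adjusted for the other-cell score it was -0.31 and did not pass (edgeR adjusted p = 0.0976).

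Ugt2b1 (chr5:86916639-86926503) had 417 CPM in the lowest young mouse, 624 at the median and 767 in the highest. Old mice held 228, 345 and 413 CPM in the same order, which is kept for the genes that follow. No old mouse reached the lowest young mouse, and the log2 fold change was -0.90 (SE 0.114, edgeR adjusted p = 5.29e-05), at -0.94 on the earlier cull day and -0.84 on the later. Ugt2b38 (chr5:87409940-87424203), which like Ugt2b1 is male-biased in mouse liver, ranged over 98.6, 142 and 211 CPM in young mice and 62.2, 83.7 and 118 CPM in old mice. Of the old mice, 8 were below every young mouse. The log2 fold change was -0.83 (SE 0.111, edgeR adjusted p = 7.60e-05). Ugt2b35 had 181, 214 and 302 CPM in young mice and 136, 160 and 173 CPM in old mice. All old mice were below all young mice, and it fell by 0.50 on the log2 scale (SE 0.0863, edgeR adjusted p = 0.000539).

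Ugt2b37 is the rarest of the 7 and had the largest fall. Young mice ranged from 1.16 over a median of 2.38 to 15.6 CPM, and old mice from 0.175 over 0.689 to 1.06 CPM. In counts these are 21 to 279.5 reads against 4 to 20.5. Young mouse 1186 alone made the top value, and mice 1184 and 1188 followed at 4.37 and 3.92 CPM, so that the 3 young mice that stand apart were the highest here. The log2 fold change was -2.44 (SE 0.476, edgeR adjusted p = 0.00139), and -1.46 without them (edgeR adjusted p = 0.00237). It was -3.35 on the earlier cull day and -1.44 on the later; this difference did not pass the test of the interaction (unadjusted p = 0.0347, edgeR adjusted p = 0.733).

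The remaining pair fell less. Ugt2b34 ran over 359, 504 and 564 CPM in young mice and 279, 382 and 442 CPM in old mice, a log2 ratio of -0.36 (SE 0.0914, edgeR adjusted p = 0.00724). Ugt2b36, second of the Ugt2b genes per length at 308 CPM per kb, had 426, 673 and 809 CPM in young and 396, 520 and 580 CPM in old mice. It fell by 0.25 on the log2 scale (SE 0.0876, edgeR adjusted p = 0.0373), close to the threshold. Leaving out single mice ended that call in 10 of 19 fits, with values of -0.29 to -0.21. The groups overlapped at mice 1184, 1186 and 1188 (426 to 522 CPM), while the other 7 young mice held 599 to 809 CPM, above the highest old mouse. Without those 3 the value was -0.38 (edgeR adjusted p = 0.00234).

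Of the 7 Ugt2b genes, Ugt2b1, Ugt2b35, Ugt2b37 and Ugt2b38 also fell once adjusted for the other-cell score, in a fit where 13.1% of all genes passed (6.72% higher and 6.39% lower). For Ugt2b34 the value with the covariate was -0.17 (edgeR adjusted p = 0.264), and for Ugt2b36 -0.14 (edgeR adjusted p = 0.398). Ugt2b5 and Ugt2b38 share 24.7% and 24.2% of their 100-base windows, with an identical run of 444 bases, so their reads could be exchanged in counting. Ugt2b37 shares 1.1% of its windows, and a run of 118 bases is identical in it and Ugt2b5, as is one in it and Ugt2b38. Part of its few reads could therefore belong to these far more abundant genes. Ugt2b1, Ugt2b35 and Ugt2b36 share no such window with another member.

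**Figure D2:**
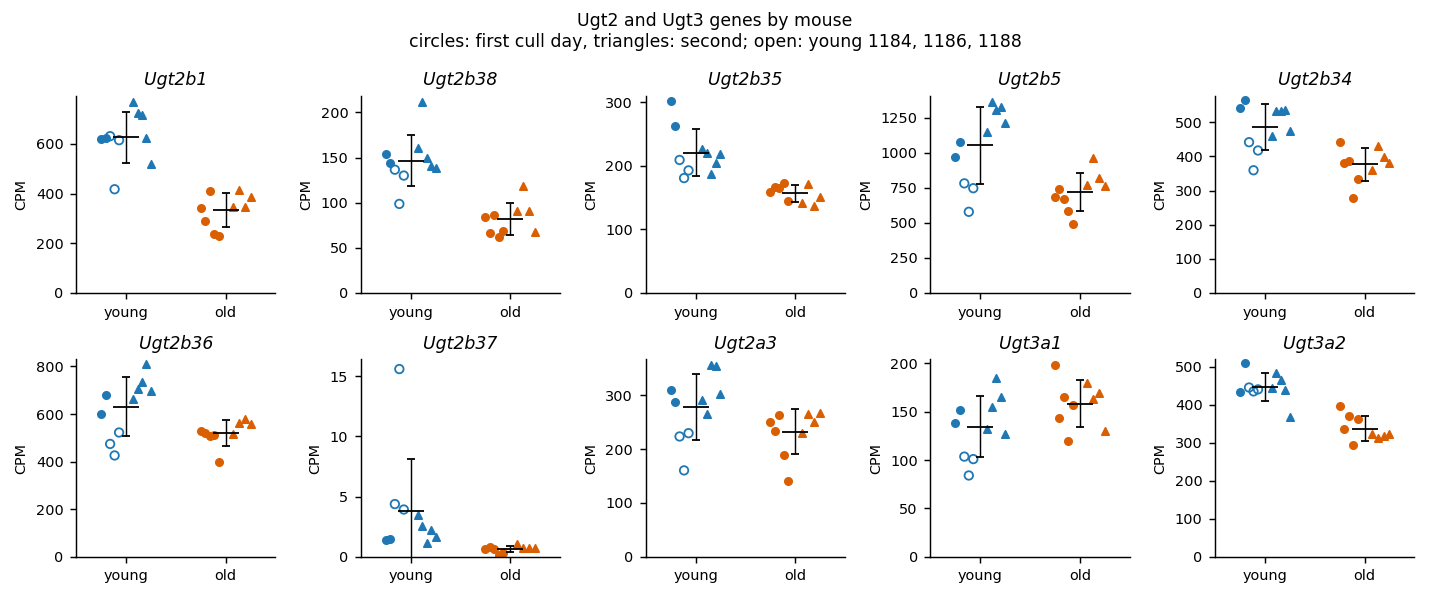
CPM of the tested Ugt2 and Ugt3 genes in each mouse (points) with mean and SD (bars, cut off at 0), for 10 young and 9 old mice; circles are the first cull day, triangles the second, and open circles young mice 1184, 1186 and 1188. All old points of Ugt2b1, Ugt2b35 and Ugt2b37 lie below all young points, and the open circle at 15.6 CPM in Ugt2b37 is young mouse 1186.

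The other Ugt2 and Ugt3 genes split. Ugt3a2 (chr15:9335598-9370870) and Ugt3a1 (chr15:9279829-9315036) are neighbours whose enzymes are known to use other sugars than glucuronic acid. Ugt3a2 had 367, 442 and 509 CPM in young mice (lowest, median, highest) and 294, 323 and 397 CPM in old mice. In 7 of 9 old mice it was below every young mouse. It fell by 0.41 on the log2 scale (SE 0.0662, edgeR adjusted p = 0.000306), and, with the score as covariate, by 0.34 (edgeR adjusted p = 0.0128). Ugt3a1 had 84.1, 136 and 184 CPM in young and 120, 163 and 198 CPM in old mice. The log2 fold change of 0.26 did not pass (SE 0.123, edgeR adjusted p = 0.111), but with the covariate it was 0.51 and passed (edgeR adjusted p = 0.0231). Mice 1184, 1186 and 1188 were the 3 lowest young mice of Ugt3a1, at 84.1 to 104 CPM, and without them the value was 0.08 (edgeR adjusted p = 0.617).

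Ugt2a3 lies among the Ugt2b genes and ran over 161, 290 and 356 CPM in young mice and 142, 250 and 267 CPM in old mice. Its log2 fold change of -0.23 did not pass (SE 0.122, edgeR adjusted p = 0.152), and without mice 1184, 1186 and 1188 it was -0.38 (edgeR adjusted p = 0.0271). The first cull day alone gave -0.16 (edgeR adjusted p = 0.641), and the second -0.31, which passed (edgeR adjusted p = 0.0467). Ugt2a1 and Ugt2a2, known from olfactory tissue, had 0 to 1.5 and 0 to 1 counts per library. They overlap on the genome and share 67.8% and 68.6% of their windows, so these few reads cannot be split between them.

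The Ugt1a rows stood between 458 and 1244 CPM in every library and did not pass, with log2 fold changes of 0.13 to 0.20. Ugt1a1, whose enzyme conjugates bilirubin, had 587, 898 and 1144 CPM in young and 836, 921 and 1244 CPM in old mice, a log2 ratio of 0.13 (SE 0.115, edgeR adjusted p = 0.396). Ugt1a6b, the highest row of the cluster per length at 346 CPM per kb over a shorter row of 2285 bases, had 497, 750 and 965 CPM against 721, 799 and 1047 CPM, a log2 ratio of 0.16 (SE 0.118, edgeR adjusted p = 0.328). In every Ugt1a row young mice 1184, 1186 and 1188 were below the other 7 young mice. Without them the value of Ugt1a1 was -0.06 and that of Ugt1a6b -0.04.

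These 8 values are nearly the same measurement, because reads on the common exons were counted in each row. Per library, the lowest of the rows that reach the cluster's end amounted to 74.6% to 86.1% of the Ugt1a1 row and to at least 99.8% of the Ugt1a7c and Ugt1a10 rows. Subtracting it leaves an estimate of the reads on each gene's own first exons. Ugt1a6b is left out, since its row holds 1304 of the 2309 common bases and the subtraction would remove reads it never held. By this estimate Ugt1a1 was the main form, with a mean of 3303 own reads per library, or 190 CPM per kb of own exon. Ugt1a6a followed with 1109 own reads (59.4 CPM per kb), then Ugt1a5 (739), Ugt1a9 (547) and Ugt1a2 (78.8). Ugt1a10 had 0 to 12.5 own reads, and Ugt1a7c had 40 in old mouse 1187. In every other library the Ugt1a7c row was itself the lowest, so its own reads are 0 there by construction.

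Own reads of Ugt1a6a fell, in a fit where 30.8% of all genes passed and 14.5% were lower; 1 call among so few genes is no result about the cluster. Ugt1a6a, whose enzyme conjugates small phenols, had 51.8, 63.2 and 82.3 CPM of own reads in young mice and 35.7, 48.3 and 77.0 CPM in old mice. In 7 of 9 old mice they were below every young mouse. They fell by 0.35 on the log2 scale (SE 0.122, edgeR adjusted p = 0.0339), and by 0.50 without mice 1184, 1186 and 1188 (edgeR adjusted p = 0.0104). Ugt1a6a and Ugt1a6b share an identical run of 1350 bases, which includes part of their own exons, so these reads cannot be assigned to Ugt1a6a alone. Own reads of Ugt1a1 had a log2 ratio of -0.07 (edgeR adjusted p = 0.711), Ugt1a9 0.08 (0.741), Ugt1a5 0.43 (0.275) and Ugt1a2 0.54 (0.178). The shared reads gave 0.18 (edgeR adjusted p = 0.260). Own reads were computed after the tables had been seen.

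**Figure D3:**
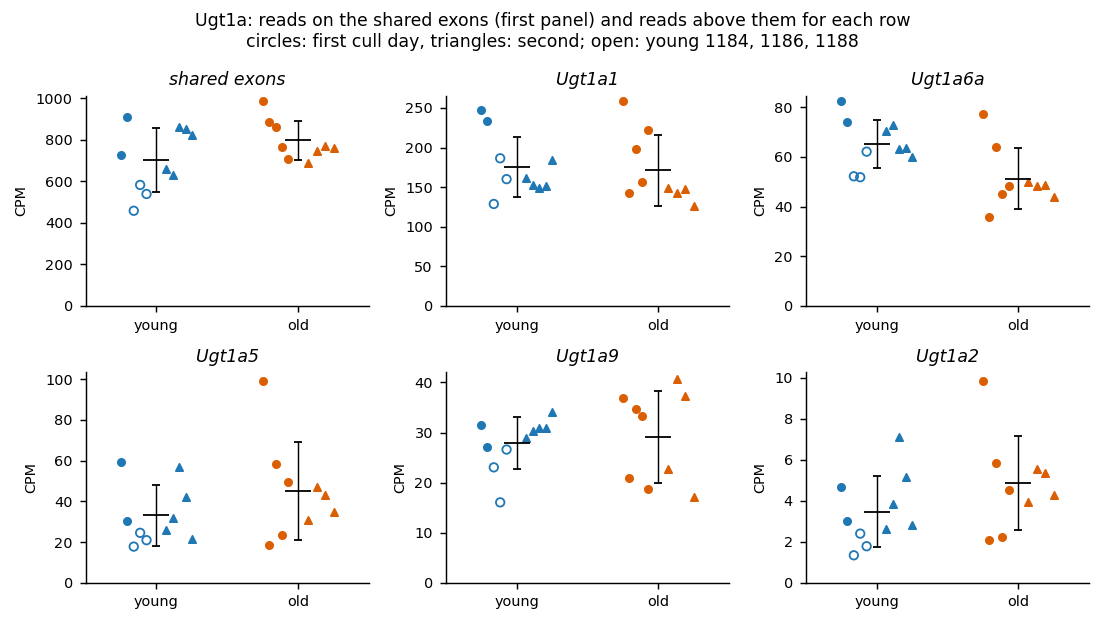
CPM of the lowest full-length Ugt1a row of each library, taken as the shared reads (first panel), and CPM of own reads above it for 5 genes. Points are mice, with mean and SD, and symbols are as for the Ugt2 and Ugt3 genes. Old mice lie lower in the panel of Ugt1a6a (35.7 to 77.0 CPM against 51.8 to 82.3 CPM), and the 3 open circles are the lowest young values of the shared reads.

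Sulfotransferase reads came from few genes. Of 21 Sult genes, 7 were tested, 3 fell (Sult2a8, Sult1d1 and Sult5a1) and 1 rose (Sult2a7). Sult2a8, the leading Sult gene per length at 228 CPM per kb, sulfates bile acids in mouse hepatocytes. It had 349, 623 and 696 CPM in young mice and 192, 377 and 466 CPM in old mice. Only young mouse 1186 lay among the old mice, and the other 9 young mice were above all of them. The log2 fold change was -0.72 (SE 0.150, edgeR adjusted p = 0.00215), at -0.72 on both cull days. With the other-cell covariate it was -0.40 and did not pass (edgeR adjusted p = 0.0790).

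Sult1d1 (chr5:87554650-87569006), whose enzyme sulfates catecholamines and other phenols, ran over 68.8, 78.5 and 107 CPM in young and 43.0, 53.7 and 71.8 CPM in old mice. In 8 of 9 old mice it was below every young mouse. It fell by 0.57 on the log2 scale (SE 0.106, edgeR adjusted p = 0.000978). The cull days gave -0.82 (edgeR adjusted p = 0.0188) and -0.29, which did not pass alone (edgeR adjusted p = 0.107), and in the fit of the interaction the unadjusted p was 0.00826 (edgeR adjusted p = 0.680). Mice 1184, 1186 and 1188 had 91.3 to 107 CPM of Sult1d1, in the upper part of the young range. Sult5a1 (chr8:123142847-123158280) had 5.23, 7.21 and 12.9 CPM in young and 2.14, 4.25 and 6.34 CPM in old mice, a fall of 0.89 on the log2 scale (SE 0.178, edgeR adjusted p = 0.00167). Both Sult1d1 and Sult5a1 also fell with the covariate (-0.55, edgeR adjusted p = 0.0120, and -0.90, edgeR adjusted p = 0.0106).

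Sult2a7 was the only member that rose. It ran from 7.5 to 58 counts in young and 20.5 to 81.5 counts in old mice, or 0.368, 0.983 and 3.23 CPM against 1.07, 1.94 and 4.18 CPM. The log2 fold change was 0.96 (SE 0.349, edgeR adjusted p = 0.0433). It did not pass with the other-cell covariate (0.78, edgeR adjusted p = 0.233), without the filter on low counts (0.93, edgeR adjusted p = 0.0530) or in the first cull day alone (0.51, edgeR adjusted p = 0.528, against 1.48 in the second). The call was lost in 11 of the 19 fits without 1 mouse, with values of 0.78 to 1.26, and 2 of 9 old mice exceeded the highest young mouse. The top young value came from mouse 1186, and without mice 1184, 1186 and 1188 the log2 fold change was 1.45 (edgeR adjusted p = 0.00849). Sult2a7 and Sult2a8 adjoin each other on chromosome 7, and their transcripts share no identical run over 17 bases.

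Sult1a1, the main phenol sulfotransferase, had 117, 164 and 222 CPM in young and 147, 207 and 349 CPM in old mice. The value of 0.35 did not pass (SE 0.152, edgeR adjusted p = 0.0883), and old mouse 1189 held the top value. Without mice 1184, 1186 and 1188 Sult1a1 was at 0.23 (edgeR adjusted p = 0.290). Sult1b1, known for thyroid hormone sulfation, had 13.1, 16.3 and 23.9 CPM against 13.1, 15.8 and 19.3 CPM, a value of -0.19 (SE 0.122, edgeR adjusted p = 0.256). Without mice 1184, 1186 and 1188 it was -0.37 (edgeR adjusted p = 0.0202), and with the other-cell covariate 0.08 (edgeR adjusted p = 0.747). Sult1c2 had 0.836 to 3.73 CPM in young and 1.43 to 4.96 CPM in old mice (log2 fold change 0.43, SE 0.244, edgeR adjusted p = 0.183). Mice 1184, 1186 and 1188 were its 3 lowest young mice, at 0.836 to 1.65 CPM against 2.01 to 3.73 CPM, and without them the value of Sult1c2 was 0.13 (edgeR adjusted p = 0.672).

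The 14 untested Sult genes had at most 23 counts in any library. Sult1c1 and Sult3a2 had no read in 19 libraries, where a count of 0 allows up to 3 counts per library. Female-biased sulfotransferases were near 0 at both ages: Sult2a1 had 0 to 2 counts, Sult2a2 0 to 4, Sult2a3, Sult2a4, Sult2a5 and Sult2a6 0 to 0.5, and Sult3a1 0 to 3. Sult1e1, the estrogen sulfotransferase, had 23 counts in young mouse 1186 and 0 to 5 in the other young mice, against 0 to 1 in old mice. In a fit without the filter, where 24.9% of genes passed, edgeR gave Sult1e1 an adjusted p of 0.0253. Sult4a1 had 0 to 1 counts in young and 0 to 5 in old mice (edgeR adjusted p = 0.0358 without the filter). Sult2b1, Sult6b1 and Sult6b2 had 0 to 2.5, 0 to 3.5 and 0 to 1.5 counts.

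**Figure D4:**
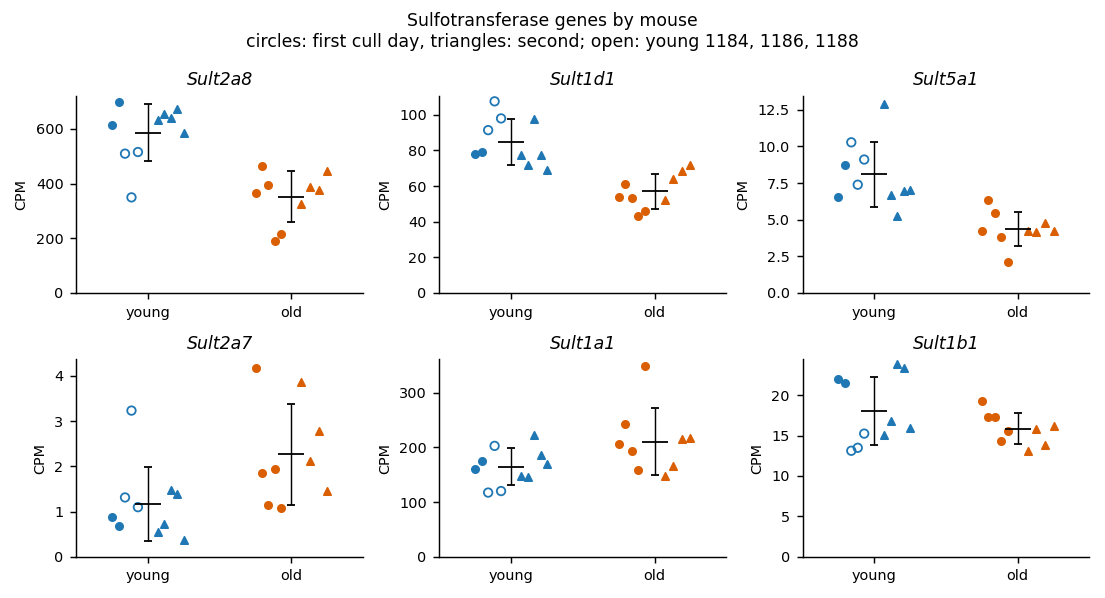
CPM of 6 tested Sult genes in each mouse, with mean and SD; circles are the first cull day, triangles the second, and open circles young mice 1184, 1186 and 1188. Old mice lie low in Sult2a8, Sult1d1 and Sult5a1, while the point at 349 CPM in Sult1a1 is old mouse 1189.

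Among the 14 tested carboxylesterases, Ces2c, Ces2d-ps, Ces3a, Ces3b and Ces4a fell, and the largest falls were those of Ces2c, Ces4a and Ces2d-ps. Ces2c (chr8:104847068-104854482), whose enzyme hydrolyses acyl esters, had 25.0, 35.3 and 59.7 CPM in young mice and 6.86, 8.88 and 17.3 CPM in old mice. All 9 old mice were below all 10 young mice, and the means were 39.0 ± 10.9 CPM (SD, n = 10) and 10.4 ± 4.15 CPM (SD, n = 9). The log2 fold change was -1.94 (SE 0.193, edgeR adjusted p = 7.31e-06), at -1.88 on the earlier cull day and -2.00 on the later. Ces2d-ps (chr8:104867424-104874082), annotated as a pseudogene, had 12.5, 17.2 and 23.9 CPM against 3.01, 4.65 and 9.52 CPM. It fell by 1.73 on the log2 scale (SE 0.172, edgeR adjusted p = 7.31e-06). Ces2c and Ces2d-ps share 15.7% and 18.9% of their 100-base windows, so part of their reads could be exchanged.

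Ces2b (chr8:104831644-104838652), on the other side of Ces2c, was too rare to be tested. Young mice held 2 to 72 counts (193 in all) and old mice 0 to 3 (6.5 in all), with 0 in 5 of 9 old mice. Young mice of the earlier cull day had 12.5 to 72 counts of it and those of the later day 2 to 34.5. In the fit without the filter Ces2b had a log2 fold change of -4.45 (edgeR adjusted p = 0.000632), larger than that of any tested carboxylesterase but resting on few reads. Its longest run identical to Ces2c is 99 bases, just under the 100-base window, so an exchange of reads with Ces2c was not tested. The other untested carboxylesterases were low at both ages: Ces1a had 0.5 to 10 counts, Ces2f 0 to 1.5, Ces2h 1.5 to 7.5 and Ces5a 0 to 0.5.

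Ces2a, Ces2e and Ces2g of the same cluster did not pass, with log2 fold changes of -0.17, 0.27 and 0.10 (edgeR adjusted p = 0.448, 0.292 and 0.425). Ces2a was the most abundant of the Ces2 genes, with 222, 378 and 474 CPM in young and 187, 312 and 453 CPM in old mice. Young mice 1184, 1186 and 1188 held 222 to 298 CPM of Ces2a, below the other young mice (372 to 474 CPM). In Ces2e they held 99.8 to 137 CPM against 192 to 290 CPM.

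Ces3a and Ces3b, known as liver esterases, both fell. Ces3a (chr8:105048599-105058414), second of all Ces genes per length at 809 CPM per kb, had 1694, 1934 and 2169 CPM in young mice and 931, 1441 and 1760 CPM in old mice. In 8 of 9 old mice it was below every young mouse, and the log2 fold change was -0.49 (SE 0.113, edgeR adjusted p = 0.00413). Ces3b (chr8:105083755-105093591) had 296, 417 and 516 CPM against 135, 267 and 376 CPM, a log2 ratio of -0.69 (SE 0.170, edgeR adjusted p = 0.00590). With the other-cell covariate neither passed, at -0.31 (edgeR adjusted p = 0.105) and -0.49 (edgeR adjusted p = 0.103). Ces3a and Ces3b share 9.1% and 7.7% of their 100-base windows, with an identical run of 194 bases, so part of their reads could be exchanged too. Ces4a (chr8:105131800-105150109), next in line, had 1.47, 2.81 and 5.34 CPM in young and 0.218, 1.07 and 1.31 CPM in old mice. It fell by 1.91 on the log2 scale (SE 0.364, edgeR adjusted p = 0.00119), with 5 counts in its lowest library. The earlier cull day gave -2.45 (edgeR adjusted p = 0.0272) and the later -1.31, which did not pass alone (edgeR adjusted p = 0.0734).

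Ces2c, Ces2d-ps and Ces4a also fell with the other-cell covariate, at -2.04 (edgeR adjusted p = 0.000107), -1.66 (edgeR adjusted p = 0.000246) and -1.69 (edgeR adjusted p = 0.0164). Young mice 1184, 1186 and 1188 had 32.9 to 59.7 CPM of Ces2c and the other 7 young mice had 25.0 to 48.7 CPM.

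Carboxylesterase 1 genes did not pass in edgeR, and their values turned on which young mice were included. Ces1c, a carboxylesterase secreted to plasma, was the most abundant member of the 3 families per length, at 1414 CPM per kb. It had 1923, 2352 and 2961 CPM in young and 2242, 2738 and 3860 CPM in old mice, a log2 ratio of 0.26 (SE 0.109, edgeR adjusted p = 0.0774). With the other-cell covariate it was 0.49 and passed (edgeR adjusted p = 0.0121), and without mice 1184, 1186 and 1188 it was 0.09 (edgeR adjusted p = 0.498). Ces1d, a triacylglycerol hydrolase, had 194, 877 and 1084 CPM in young and 472, 880 and 1221 CPM in old mice. The value of 0.33 did not pass (SE 0.274, edgeR adjusted p = 0.372). The cull days gave 0.76 and -0.14, and the interaction did not pass (unadjusted p = 0.0974, edgeR adjusted p = 0.826). Ces1f had 175, 614 and 715 CPM against 301, 539 and 624 CPM, a log2 ratio of 0.02 (SE 0.203, edgeR adjusted p = 0.940).

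In several Ces1 genes the lowest young values were those of mice 1184, 1186 and 1188. They held 194 to 405 CPM of Ces1d against 671 to 1084 CPM in the other 7, 54.3 to 109 CPM of Ces1e against 204 to 333 CPM, and 175 to 319 CPM of Ces1f against 571 to 715 CPM. Without them Ces1d was at -0.10 and Ces1f at -0.30, and neither passed (edgeR adjusted p = 0.697 and 0.0807). Ces1e, which binds beta-glucuronidase in the endoplasmic reticulum, was at -0.11 with them (SE 0.287, edgeR adjusted p = 0.795) and at -0.53 without them (edgeR adjusted p = 0.0365). Its sign also changed with the other-cell covariate (0.64, edgeR adjusted p = 0.189), in the first cull day alone (0.20) and in limma-voom (0.05). On the second cull day alone, which holds none of the 3 mice, Ces1e was at -0.46 and passed (edgeR adjusted p = 0.0212). Ces1g was at 0.31 (edgeR adjusted p = 0.189) and Ces1b at -0.13 (edgeR adjusted p = 0.348). Without the 3 mice Ces1g was at 0.04 (edgeR adjusted p = 0.842) and Ces1b at -0.26 (edgeR adjusted p = 0.0678). Over all members, leaving out the 3 mice gave 1 higher and 19 lower genes, among them all 16 that fell with them, in a fit where 27.2% of genes passed and 12.5% were lower.

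**Figure D5:**
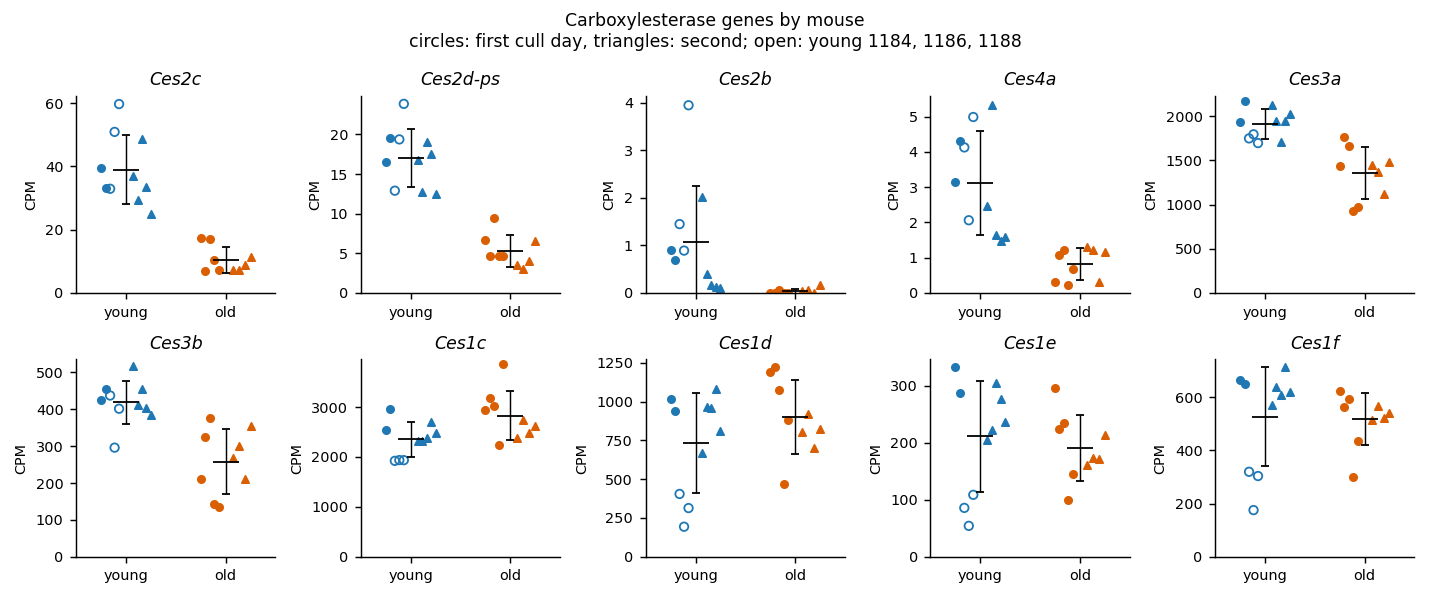
CPM of 10 Ces genes in each mouse, with mean and SD (bars, cut off at 0); circles are the first cull day, triangles the second, and open circles young mice 1184, 1186 and 1188. All old points of Ces2c, Ces2d-ps and Ces4a lie below all young points, and the open circles lie lowest among young mice in Ces1d, Ces1e and Ces1f.

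With the other-cell covariate 6.72% of all tested genes were higher and 6.39% lower in old mice. In that fit 10 of the 16 members that fell still fell, and 5 of the 39 members passed as higher in old mice: Ugt3a1, Sult1a1 (0.56, edgeR adjusted p = 0.0499), Sult1c2 (0.88, edgeR adjusted p = 0.0355), Ces1c and Ces1d (1.04, edgeR adjusted p = 0.0185). Sult2a7 did not pass there. What part the other cells have in the remaining differences was not tested. In the test of the interaction with cull day 0 of 39 members passed in edgeR, the smallest adjusted p was 0.680, and 2 (Ugt2b37 and Sult1d1) had an unadjusted p under 0.05, as did 799 of all 12269 genes. Over all genes 0% passed that test.

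Genes that supply these enzymes were read from the same fit, in which 16.3% of all genes were higher and 14.5% lower. With 5 to 12 genes in a list, the counts below are descriptions and set no list apart from those shares. Of 5 genes for the glucuronide donor, 2 fell: Ugdh, which makes UDP-glucuronic acid, from 200.2 ± 17.5 (SD, n = 10) to 156 ± 23.9 CPM (SD, n = 9; log2 fold change -0.36, edgeR adjusted p = 0.00451), and Ugp2, which makes UDP-glucose (-0.37, edgeR adjusted p = 0.0131). Of 5 tested genes for the sulfate donor, 2 fell: Bpnt1, which clears the spent donor (-0.38, edgeR adjusted p = 0.000371), and the sulfate transporter Slc26a1 (-0.24, edgeR adjusted p = 0.0330). Papss1 and Papss2, which make PAPS, were at 0.01 and -0.16 and did not pass. A list for the removal of conjugates had 5 tested genes: Gusb, the sulfatases Arsa and Arsb, and the sulfatase-modifying factors Sumf1 and Sumf2. Their edgeR adjusted p values were 0.272 or more. These few genes do not cover the removal of drug or hormone conjugates as a whole. Ugp2, Slc26a1, Papss1, Papss2 and, below, Abcc2, Abcc4, Slco1b2, Aadac, Ephx2, Hnf4a and Cyp2b9 were picked for mention after their values had been seen.

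Among 9 transporters of conjugates 2 rose (Abcb1a and Abcc4) and 3 fell (Abcg2, Abcc2 and Slco1b2). The exporter Abcg2 fell by 0.47 on the log2 scale (edgeR adjusted p = 0.000669) and Abcb1a rose by 1.23 from a young mean of 1.13 CPM (edgeR adjusted p = 0.00411). Among 12 other hydrolases 1 rose, Pnpla3 (2.38, edgeR adjusted p = 0.000754), and 3 fell: Aadac, Ephx2 and Mgll (-0.56 for Mgll, edgeR adjusted p = 0.00356). A list of 12 genes held regulators of these families and also Por, which is not one. Of the 12, 3 fell and none rose: Rxra (-0.27, edgeR adjusted p = 0.0206), Hnf4a (-0.30, edgeR adjusted p = 0.0268) and Ppara (-0.46, edgeR adjusted p = 0.0348). The receptors Nr1i2 (PXR), Nr1i3 (CAR), Ahr and Nr1h4 (FXR) were at -0.10, -0.03, -0.17 and 0.02 and did not pass. A list of target genes of some of these regulators, Ppara among them, had 7 tested genes. Of these Nqo1 rose (0.59, edgeR adjusted p = 0.0250), Cyp1a2 fell (-0.91, edgeR adjusted p = 0.000290) and 5 did not pass. Of 11 male-biased liver genes, Ugt2b1 and Ugt2b38 included, 6 fell and 0 rose. Only 6 of 15 female-biased genes were tested, and of these Cyp2b9 and Ntrk2 rose, with Ntrk2 at 3.21 (edgeR adjusted p = 1.79e-05). The 15 summed to 4.84 to 12.7 CPM in young and 14.2 to 134 CPM in old mice. At such levels a gene can pass the filter through the old mice alone, so the 2 lists cannot be set against each other. With the other-cell covariate Ugdh, Bpnt1, Abcg2, Pnpla3, Cyp1a2, Cyp2b9 and Ntrk2 still passed in edgeR. Apart from Ugt2b1 and Ugt2b38, the other genes of these lists that are named as risen or fallen did not (edgeR adjusted p = 0.0646 for Abcb1a, 0.252 for Ugp2, 0.322 for Hnf4a and 0.647 for Ppara).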

How the data were processed

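Per the file headers, the deposited values are estimated counts per gene, written by the authors with HOMER's analyzeRepeats.pl for mm10 over exons of transcripts condensed to genes and left raw. STAR is named in the submitters' processing notes. Libraries were stranded and paired-end (100 bases), per the labels' protocols; the strand setting of counting and the handling of reads with several matches are not given in the sources used here, so near-identical or overlapping genes are uncertain.

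The counts came in steps of 0.5 (29.2% not whole) and were rounded to whole counts, ties to even, where the tests had been planned for plain counts. Genes were kept by filterByExpr by age (minimum count 10). Age was tested with edgeR 4.0.16 in R 4.3.3 (quasi-likelihood test, TMM scaling, cull day as covariate) with Benjamini-Hochberg adjustment over 12269 genes at 0.05. The SE is the absolute log2 fold change over the square root of F. CPM used TMM-scaled totals of tested genes. Levels per kb used the deposited exon length. The method was tested on simulated data. DESeq2 1.42.0, limma-voom (limma 3.58.1), other scaling and filters, single cull days, a covariate for other cells and leaving out mice were alternatives.

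Own Ugt1a reads are a row minus the lowest full-length Ugt1a row of that library. Shared windows are 100-base stretches of GENCODE M21 transcripts found in another member. In each family the 4 members highest per kb and up to 6 largest changes past the threshold (mean of at least 1 CPM, same direction on both cull days) were described in full; other members were given by values or counts. The members and gene lists were chosen with earlier results of these data known. Floors cover counting error only. Each library is a separate mouse per the labels.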

Additional observations from a re-analysis of the deposited data

Results flagged for a closer look

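Within an age, 4 of 78 groups of values (a tested member in young or in old mice) had 1 mouse far from the others, by a gap that is large against the group's whole range. Chance flags about 1 in 20 groups. Young mouse 1186 was highest for Ugt2b37, at 15.6 CPM with 4.37 CPM next, and for Sult2a7, at 3.23 CPM with 1.49 CPM next. Old mouse 1189 was highest for Sult1a1, at 349 CPM with 242 CPM next, and lowest for Ugt2b36, at 396 CPM with 509 CPM next.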

How the results depend on the processing

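The counts of genes past the threshold (8 Ugt, 4 Sult, 5 Ces) were 7 to 9, 3 to 5 and 5 to 6 in the 19 fits that each left out 1 mouse. In the first cull day alone they moved most, to 3 Ugt genes and 1 Sult gene, with 4 Ces genes, in a fit that called 450 of 12260 genes. Those 4 were Ces2c, Ces2d-ps, Ces4a and Ces2b, the last not tested in the report's fit, and Ces3a and Ces3b did not pass. On the second day alone Sult1d1 and Ces4a did not pass, while Ugt2a3 and Ces1e passed as lower. That fit called 2389 of 12362 genes. The interaction with cull day gave 0 in all 25 alternatives. Of the 23 members described in full, 16 had passed; over 31 alternatives their 496 values kept direction and call in 455 and lost the call in 41, with 0 reversals. Most losses were those of Ugt2b36 and Sult2a7 (14 each). Of the members described in full, those that had not passed changed sign as follows; other uncalled members, such as Ces1e, Ces2a and Ces2e, did so too. On the second cull day alone values were -0.0620 for Ugt1a6b, -0.0646 for Ugt1a1, -0.14 for Ces1d and -0.23 for Ces1f. Without young mice 1184, 1186 and 1188 they were -0.0387, -0.0559, -0.0968 and -0.296. Own Ugt1a reads gave -0.0656 for Ugt1a1, and -0.30 for Ugt1a6b, whose shorter row makes its own reads an uncertain measure. With the other-cell covariate Sult1b1 was at 0.0763. Ces1f was at -0.0080 without the filter on low counts, at -0.0248 without the cull day term and at -0.0895 to 0.121 without single mice. The cause of these moves was not tested. With library totals alone 64.2% of the genes called were higher, where TMM gave 53.0%, and all genes had a median log2 ratio of 0.042. No paired analysis was possible because library numbers are not shared between ages. Depth limits the 21 untested genes, whose counts cannot show small differences.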
